A study of Mus musculus with 6 samples.

Results

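Muscle precursor cells leave the cell cycle when they fuse into myotubes, and the 44 genes described here are the genes of the cycle and of its arrest. The rule for them was function in the cycle, though earlier results of these libraries were known when the list was made. They comprise 9 cyclins and kinases that act mainly before and in S phase, 12 genes of mitosis, 12 genes of DNA replication, 4 E2F transcription factors, 3 genes of the Rb family and 4 inhibitors of cyclin-dependent kinases (CDKs). All 44 were found by symbol among 22671 mouse genes placed on NCBI Build 37 (mm9).

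In a dividing cell, cyclins and their kinases phosphorylate the Rb family proteins, which then release the E2F factors that switch on replication genes. CDK inhibitors block the kinases, the Rb family proteins stay bound to E2F factors, and the genes of replication and mitosis are kept off. Mitotic genes are known for promoters with CCAAT boxes and a cell cycle genes homology region (CHR), and replication genes for promoters with E2F sites. In muscle, the CDK inhibitor p21, encoded by Cdkn1a, and Rb1 are the best known keepers of the arrest in which myotubes stay.

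The series holds chromatin immunoprecipitation followed by sequencing (ChIP-seq) of Sox6, a transcription factor of muscle fiber type, and of RNA polymerase II (Pol II), the enzyme that transcribes these genes, together with the input DNA before immunoprecipitation. All 6 libraries, 2 of each kind, came from untreated wild type C57BL/6 myoblasts of E18.5 limb muscle, at passage 17, kept in low-serum differentiation medium for 48 hours, and the replicates were independent experiments. There was no dividing culture and no Sox6 mutant among them, so each gene could be compared only with input and with other genes, and a change at cell cycle exit could not be measured. The Pol II antibody was raised against the repeat of the polymerase tail, and the study describes its target as a phosphorylated, transcribing form. The Sox6 and Pol II libraries hold between 1468604 and 2985437 reads and the inputs 21973495 and 24249850. Genes that mark myotubes had more Pol II than input over the gene body in 10 of 10 cases, with a median log2 ratio of 5.11. Of 4 myoblast markers, Myf5 and Pax7 had more Pol II than input over the body and Pax3 less, and Myf5, Pax3 and Pax7 had more at the start. Of 6 fibroblast markers 4 were below input over the body and 0 above, and of 3 leukocyte markers 2 were above and 1 below. All 3 endothelial markers and 2 of 3 adipocyte markers were below. Whether other cells in the culture contributed to the reads on cell cycle genes was not tested.

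The promoters were read first, since they describe the 44 genes without the use of any read. In the 300 bases from 250 upstream of the start to 50 into the gene, a CHR (TTTGAA or TTCGAA on either strand) was found in 10 of the 12 mitosis genes, in 1 of 12 replication genes, in 0 of the 4 inhibitors and in 17.6% of all 22671 promoters. CCAAT on either strand was found in 11 of the 12 mitosis genes, 7 of the replication genes and 37.9% of all promoters. An E2F site, searched as TTCCCGC and also as TTGGCGC, further as TTCGCGC and then as TTGCCGC, on either strand, was found in 7 of the 12 replication genes, 4 of the mitosis genes, 2 of 3 Rb family genes, 2 of 4 E2F genes, 1 of 4 inhibitors, 1 of 9 cyclins and kinases and 12.1% of all promoters. These letters can overlap, as where TTGGCGC is read backwards into a CCAAT box. The promoters of the 44 genes had a median GC content of 59.7%, against 56% over all genes.

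The sequences printed here, from the reference genome of the same build, are the 200 bases upstream of the start of mitosis and replication genes with these motifs. Capitals mark CHR and CCAAT in the mitosis genes Ccnb2 (cyclin B2, which drives entry into mitosis), Cdc20 (activator of the anaphase promoting complex) and Top2a (topoisomerase that disentangles chromosomes). A further CHR match of Ccnb2, which begins 4 bases past the start, lies outside the printed stretch. Mcm5 and Mcm6, subunits of the replicative helicase, have capitals at E2F sites and CCAAT.
Ccnb2, chr9:70269362-70269561, minus strand: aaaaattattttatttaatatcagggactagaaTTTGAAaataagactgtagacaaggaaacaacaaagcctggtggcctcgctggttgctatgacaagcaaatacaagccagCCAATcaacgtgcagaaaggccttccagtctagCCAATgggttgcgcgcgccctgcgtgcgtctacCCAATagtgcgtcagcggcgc
Cdc20, chr4:118109958-118110157, minus strand: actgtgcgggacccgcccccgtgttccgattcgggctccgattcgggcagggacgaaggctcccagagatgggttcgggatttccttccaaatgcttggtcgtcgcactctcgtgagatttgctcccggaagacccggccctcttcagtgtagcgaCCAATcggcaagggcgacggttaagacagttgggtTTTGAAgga
Top2a, chr11:98885504-98885703, minus strand: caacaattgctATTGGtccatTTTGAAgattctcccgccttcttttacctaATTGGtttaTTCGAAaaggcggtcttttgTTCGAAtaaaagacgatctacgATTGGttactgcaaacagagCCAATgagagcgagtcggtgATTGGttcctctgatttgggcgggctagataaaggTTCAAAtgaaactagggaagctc
Mcm5, chr8:77633227-77633426, plus strand: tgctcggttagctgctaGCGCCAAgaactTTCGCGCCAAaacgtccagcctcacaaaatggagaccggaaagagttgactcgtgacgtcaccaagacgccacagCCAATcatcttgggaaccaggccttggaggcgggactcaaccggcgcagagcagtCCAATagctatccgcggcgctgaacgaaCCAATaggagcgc
Mcm6, chr1:130256234-130256433, minus strand: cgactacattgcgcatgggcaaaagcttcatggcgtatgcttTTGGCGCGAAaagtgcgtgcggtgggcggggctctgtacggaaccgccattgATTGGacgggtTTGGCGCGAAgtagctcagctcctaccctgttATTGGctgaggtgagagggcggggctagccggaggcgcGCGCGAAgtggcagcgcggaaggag

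Top2a has 4 CHR and 5 CCAAT matches in these 200 bases, and Mcm6 has 5 E2F matches, some of which share bases. The promoter of Cdkn1a at the start of its longest model holds no E2F, CHR or CCAAT match. On reading it, a match to the p53 response element was seen in it, a 20-base site made of a pair of adjoining 10-base units for the factor that activates Cdkn1a after DNA damage. With at most 1 mismatch outside the C and G of either unit, the element begins 51 bases before the start and is in capitals here.
Cdkn1a, chr17:29227724-29227923, plus strand: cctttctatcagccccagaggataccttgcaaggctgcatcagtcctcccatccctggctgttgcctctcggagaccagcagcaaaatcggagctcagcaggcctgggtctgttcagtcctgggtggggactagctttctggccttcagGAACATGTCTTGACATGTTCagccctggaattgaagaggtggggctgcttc

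The same search, added after this sequence was seen, matched 10 of the 22671 promoters, or 0.0441%, and Cdkn1a was the only one of the 44 genes among them. A match is a run of letters, and no binding of p53, E2F or NF-Y was measured in these libraries.

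Over the gene bodies, log2 ratios of Pol II to input ran from -2.47 to 5.61 among the 44 genes, and at the starts from -1.56 to 4.95 among the 41 tested. The body was taken from 500 bp after the start of the longest model to the end of the gene, and reads were counted by their 5′ end and divided by length and depth (RPKM, reads per kb for each 1000000 mapped reads of the library). Of the 44 bodies, 18 had more Pol II than input and 6 less at an adjusted p under 0.05 in limma, where 37.9% and 25.6% of the 19846 bodies tested in the genome were called higher and lower. The share called higher among the 44 is 40.9%, close to that background, and the share called lower, 13.6%, is below it. The median log2 ratio of the 44 was 0.28, and that of all bodies tested 0.13. All 4 E2F genes and 6 of the 9 cyclins and kinases were higher, with median log2 ratios of 1.34 and 1.17. The 12 mitosis genes had a median of -0.26, with 2 higher and 3 lower. Among the 12 replication genes the median was 0.21, with 3 higher and 1 lower. In a culture of many cells, fewer cells with Pol II on a gene and less Pol II per cell cannot be told apart.

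These ratios compare shares of a library. As an alternative, libraries were scaled to background bins of 10 kb in place of all reads. These bins held no peak, and their summed Sox6 and Pol II reads were at or below the median of such bins. Picking bins with few immunoprecipitated reads itself raises ratios to input, by an amount that was not tested. With this scaling the median over all bodies rose by 1.70 on the log2 scale. Then 40 of the 44 genes were called higher (90.9%, against 72.5% of all bodies) and 1, Bub1, lower (2.27%, against 0.328%). The order of the genes is the same under both scalings, and lower in what follows means lower than input in RPKM. Under the background scaling the sign turned at Cdk6, Mki67, Top2a, Mcm6 and Rbl1, though Mki67 (0.60) and Mcm6 (0.43) were then not called. Of the 18 higher calls, 14 were kept in every alternative run for them, and of the 6 lower calls 1 was, that of Bub1.

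**Figure D1:**
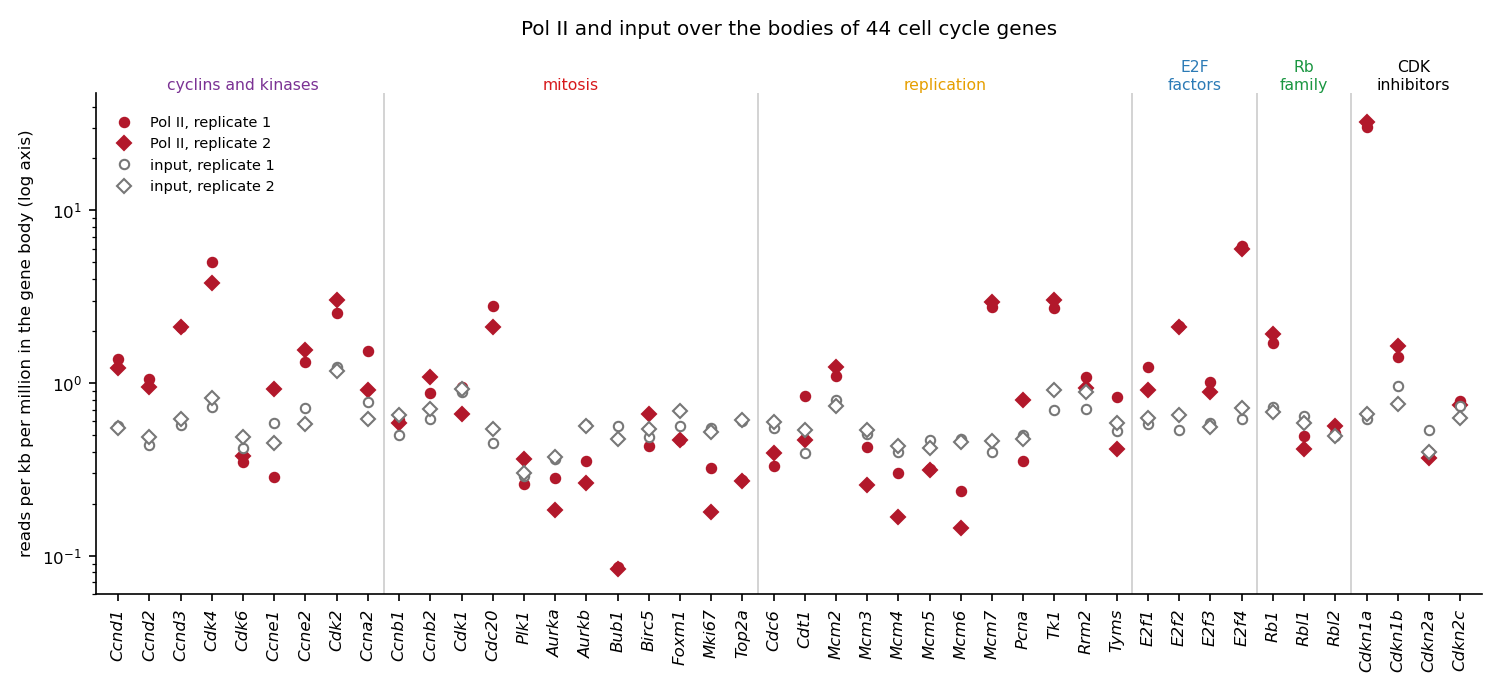
Each point is the level of 1 library over the body of 1 gene, in RPKM on a log axis, with Pol II filled, input open, and circles and diamonds for replicates 1 and 2. Cdkn1a stands at 30.4 and 32.4, E2f4 at 6.22 and 5.98 and Bub1 at 0.0860 and 0.0838, while the inputs of all 44 genes lie between 0.288 and 1.23.

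Among the CDK inhibitors, Cdkn1a (chr17:29227924-29236472) stood apart from every other gene of the set. Its body held 376 and 721 Pol II reads in replicates 1 and 2 against 109 and 129 in the inputs, which is 30.4 and 32.4 RPKM against 0.616 and 0.661. Both Pol II levels lie far above both inputs and above 99.9% of gene bodies in either Pol II library. The log2 ratio was 5.61 ± 0.11 (SE, n = 2 and 2, adjusted p = 2.7e-09). Most of this signal began inside the gene. At the annotated start 2793 bp downstream, a window of 1 kb held 73 and 131 Pol II reads against 9 and 21 in input, a log2 ratio of 6.27 ± 0.29 in a fit over all annotated starts, while the first start held 5 and 22 against 22 and 28. So the promoter printed for Cdkn1a belongs to the weaker of these starts. Pol II peaks of the deposited lists lay in the gene in both replicates, 3 in replicate 1 and 2 in replicate 2.

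The other inhibitors were lower by far. Cdkn1b, which encodes p27, had 1.41 and 1.65 RPKM against 0.957 and 0.760 in input, with no overlap between the groups and a log2 ratio of 0.88 ± 0.29 (adjusted p = 0.0231). Leaving out either input library ended that call. Cdkn2c (p18) had 0.782 and 0.747 against 0.736 and 0.631, a log2 ratio of 0.24 ± 0.31 (adjusted p = 0.525). Cdkn2a, the locus of p16 and p19Arf, had 0.397 and 0.369 against 0.533 and 0.401, with a log2 ratio of -0.23 ± 0.24 (adjusted p = 0.425). The Cdkn2a locus is often lost in long-cultured cells. Here the inputs held 230 and 191 reads over its body, so DNA of the locus was present in at least part of the culture. In windows of 100 kb around Cdkn2a, the inputs had 0.718 and 0.622 of the median over all genes, inside the 5th to 95th percentile of 0.250 to 1.50 and 0.325 to 1.49. Loss of a single copy, or loss in part of the cells, was not tested.

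In the Rb family 1 gene was called higher and 1 lower. Rb1, the gene of the retinoblastoma protein, had 342 and 692 Pol II reads over 129821 bp, or 1.71 and 1.93 RPKM, against 0.726 and 0.679 in input, a log2 ratio of 1.37 ± 0.09 (adjusted p = 1.23e-06). The value was 1.36 in the 88.2% of the body that lies outside other genes, which leaves out Lpar6 and Rcbtb2. Rbl1, which encodes p107, had 0.492 and 0.417 RPKM against 0.641 and 0.591, and both Pol II values lay below both inputs. Its log2 ratio was -0.43 ± 0.13 (adjusted p = 0.0186), with the opposite sign, 1.27, under the background scaling. Rbl2, which encodes p130, the family member that accumulates in arrested cells, had 0.512 and 0.564 against 0.496 and 0.494, and its log2 ratio of 0.13 ± 0.13 missed the threshold (adjusted p = 0.389). It was -0.29 ± 0.21 in the 77.8% of the body outside Aktip (adjusted p = 0.261).

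The E2F factors all had more Pol II than input over their bodies. E2f4, the repressor that works with p130 in arrested cells, led them at 6.22 and 5.98 RPKM against 0.619 and 0.721, from 69 and 119 Pol II reads, with a log2 ratio of 3.19 ± 0.17 (adjusted p = 4.5e-07). Its level lay above 98.2% and 98.0% of all bodies in the Pol II libraries. The activators of replication genes were lower but also above both inputs. E2f2 had 2.13 and 2.11 RPKM against 0.534 and 0.650, a log2 ratio of 1.85 ± 0.14. E2f1 had 1.24 and 0.906 against 0.583 and 0.628, a log2 ratio of 0.83 ± 0.25 (adjusted p = 0.0148), a call lost when either input was left out. E2f3 had 1.02 and 0.894 against 0.587 and 0.560, a log2 ratio of 0.74 ± 0.10.

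**Figure D2:**
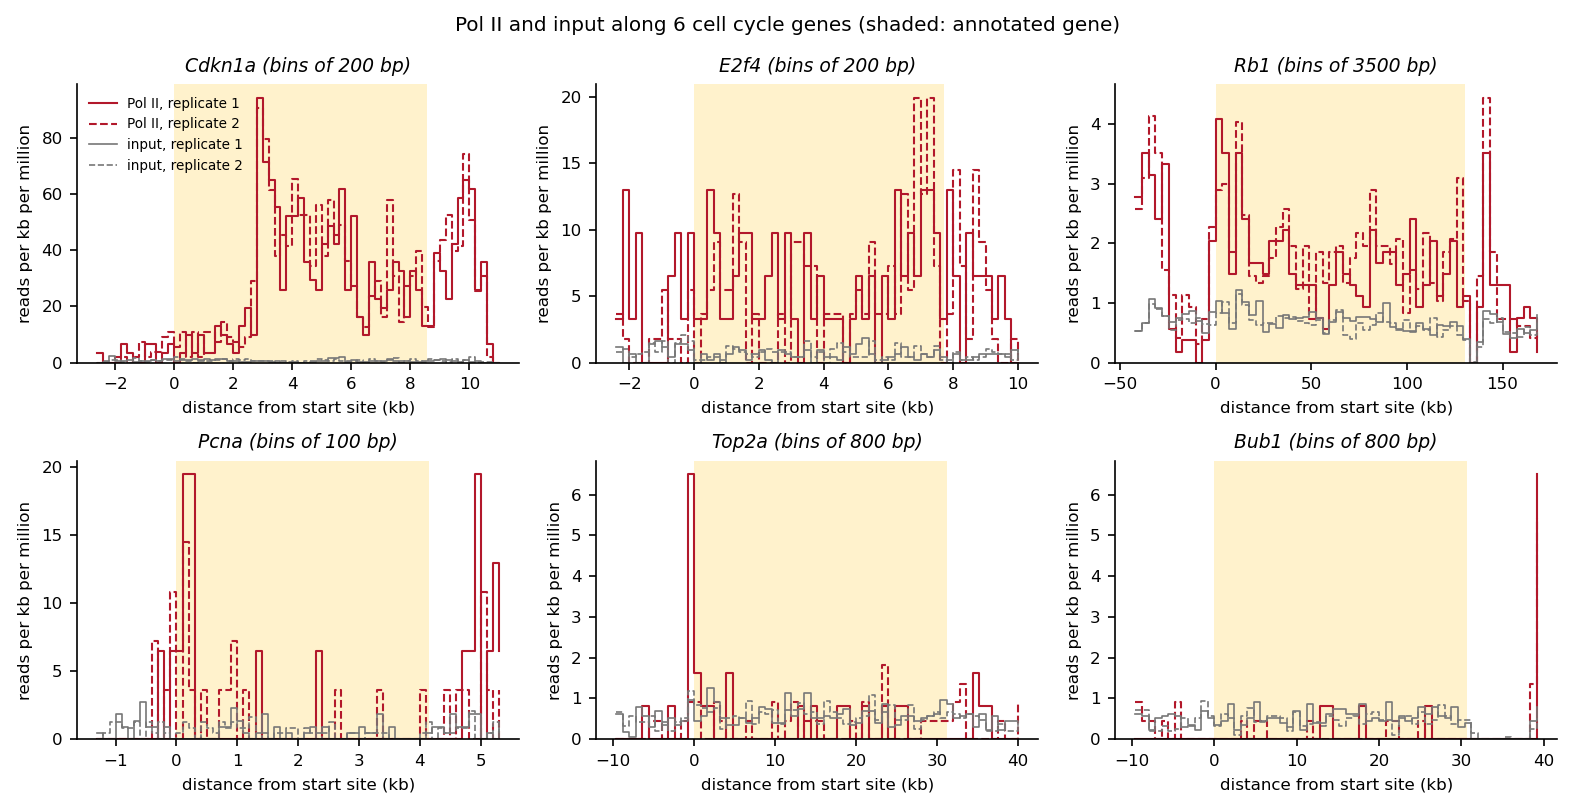
Pol II (red) and input (grey) along Cdkn1a, E2f4, Rb1, Pcna, Top2a and Bub1, in RPKM by distance from the start of the longest model in kb, with solid lines for replicate 1, dashed for replicate 2 and shading over the annotated gene. Pol II in Cdkn1a rises at the start 2793 bp into the gene and runs past the end of the gene, E2f4 and Rb1 carry it across most of the gene, Pcna has it near the start in both replicates and Top2a in replicate 1, and within Bub1 most bins hold none.

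Cyclins and kinases of G1 phase were mostly above input. Cdk4, the kinase partner of D cyclins, was the highest of them at 5.02 and 3.82 RPKM against 0.726 and 0.817, with a log2 ratio of 2.52 ± 0.25 (adjusted p = 2.48e-05). Ccnd3, the D cyclin that is retained in differentiated muscle, had 2.11 and 2.10 against 0.572 and 0.619, a log2 ratio of 1.83 ± 0.08. Of the 306 and 547 Pol II reads of this body, 9 and 9 lay at the annotated start 88416 bp into the long model, against 11 and 24 in input (log2 ratio 2.66 ± 0.44), and the first start had 2 and 2 against 18 and 11. Cdk2, the kinase of S phase entry, had 2.56 and 3.01 RPKM against 1.23 and 1.17, a log2 ratio of 1.22 ± 0.19. Ccnd1 had 1.38 and 1.23 against 0.564 and 0.550, and its log2 ratio was 1.25 ± 0.22. Ccnd2 had 1.05 and 0.950 against 0.437 and 0.484, a log2 ratio of 1.13 ± 0.16. All 3 D cyclins were thus called higher, where 37.9% of all bodies tested were. Ccne2 (cyclin E2) had 1.32 and 1.55 against 0.713 and 0.582, a log2 ratio of 1.17 ± 0.20, and 1.01 in the 57.0% of its body outside Ints8.

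Cdk6 was the exception in this group. Over a body of 178826 bp, its Pol II levels of 0.349 and 0.379 lay below the inputs of 0.423 and 0.490, a log2 ratio of -0.32 ± 0.10 (adjusted p = 0.0226), with the sign turned to 1.37 under the background scaling. Ccne1 (cyclin E1) had 0.287 and 0.920 against 0.588 and 0.451, and the replicates lay on either side of input. Ccna2, the cyclin of S and G2 phase, had 1.53 and 0.907 against 0.778 and 0.620, and its log2 ratio of 0.80 ± 0.32 just missed the threshold (adjusted p = 0.0522). It was called in 6 of 16 alternatives, among them the 87.3% of the body outside Exosc9 (0.82 ± 0.32, adjusted p = 0.0461).

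Of the 12 mitosis genes, 10 were not called higher than input over the body. The 2 that were make 16.7%, against 37.9% of all bodies tested. Bub1, a kinase of the spindle checkpoint, had the lowest value of the set, with 4 and 7 Pol II reads over 30244 bp against 373 and 347 in input. That is 0.0860 and 0.0838 RPKM against 0.561 and 0.473, a log2 ratio of -2.47 ± 0.25 (adjusted p = 2.61e-05). This call was kept under the background scaling, at -0.77. Top2a had 0.275 and 0.271 against 0.607 and 0.609, a log2 ratio of -1.11 ± 0.17, and 0.58 under the background scaling. Mki67, the proliferation antigen Ki-67, had 0.324 and 0.180 against 0.553 and 0.520. Its log2 ratio was -1.10 ± 0.28 (adjusted p = 0.00783), and 0.60 under the background scaling, where it was not called. These 3 are the mitosis genes called lower, 25% of the 12, against 25.6% of all bodies tested.

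Cdc20 and Ccnb2 went the other way. Cdc20 had 2.80 and 2.11 RPKM against 0.449 and 0.543, a log2 ratio of 2.32 ± 0.32 (adjusted p = 0.0002), and 2.12 outside the neighbouring gene Elovl1. Ccnb2 had 0.875 and 1.08 against 0.623 and 0.703, a log2 ratio of 0.58 ± 0.20 (adjusted p = 0.0323), which was lost in 5 alternatives, among them leaving out either input. The other 7 mitosis genes, Ccnb1, Cdk1, Plk1, Aurka, Aurkb, Birc5 and Foxm1, had log2 ratios from -0.71 at Aurkb to 0.17 at Plk1 and did not pass the threshold. Cdk1, the kinase of mitosis, had 0.946 and 0.664 RPKM against 0.884 and 0.921.

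The replication genes split between the helicase subunits. Mcm6 had 0.236 and 0.144 RPKM against 0.477 and 0.453. Its log2 ratio was -1.27 ± 0.28 (adjusted p = 0.00302), and 0.43 under the background scaling, where it was not called. Mcm7, whose body also holds Mir25, Mir93 and Mir106b and meets the genes Cops6 and Ap4m1, had 2.74 and 2.96 against 0.397 and 0.461. Its log2 ratio was 2.74 ± 0.23 (adjusted p = 6.52e-06), and 2.54 in the 74.1% of the body outside these genes. Mcm2 had 1.10 and 1.25 against 0.802 and 0.741, a log2 ratio of 0.62 ± 0.17 (adjusted p = 0.011), lost when either input was left out. The remaining subunits Mcm3, Mcm4 and Mcm5 had log2 ratios of -0.59, -0.78 and -0.43, none of which passed.

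Tk1, the thymidine kinase of the salvage pathway, had 2.71 and 3.02 RPKM against 0.696 and 0.913, a log2 ratio of 1.85 ± 0.19 (adjusted p = 2.43e-05). Its longest model lies wholly within Afmid or near it, so no base of the body belongs to Tk1 alone and the reads cannot be assigned to either gene. Pcna, the sliding clamp of the replication fork, had 0.356 and 0.793 against 0.498 and 0.474, and its log2 ratio of 0.32 ± 0.49 did not pass (adjusted p = 0.593). Cdc6, Cdt1, Rrm2 and Tyms, which serve origin licensing and nucleotide supply, had log2 ratios from -0.60 to 0.56 and did not pass either.

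At the start sites the reads were few. In the 1 kb centred on the start, the Pol II libraries held between 0 and 22 reads at any of the 44 genes. Of the 41 genes with at least 10 reads over the 4 libraries, 28 had more Pol II than input (adjusted p under 0.05 in limma), or 68.3%, where 47.4% of the 18451 starts tested were called. None was called lower, at an unadjusted p under 0.05 also 0. Aurkb was called lower with voom weights and without replicate 1 of Pol II, Aurkb and Bub1 with a prior in proportion to library size, and Aurkb, Bub1 and Mcm3 with 1000 bp on either side of the start. At the start of the longest model, Ccnd1, Ccne2 and Mki67 had too few reads to be tested. An annotated Ccne2 start 1243 bp downstream had 3 and 7 Pol II reads against 16 and 10 in input. Its log2 ratio was 2.12 ± 0.55 (adjusted p = 0.000487) in the limma fit over all annotated starts. A Ccnd1 start 1672 bp downstream did not pass in that fit (adjusted p = 0.139). The median log2 ratio was 1.83 over the 41 genes and 1.43 over all starts. By role, 10 of 12 replication genes, 6 of 11 mitosis genes, 5 of 7 cyclins and kinases, 4 of 4 inhibitors, 2 of 3 Rb family genes and 1 of 4 E2F genes were called.

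The count changed with the settings. Over all genes input was sparser at starts. Its mean was 0.492 and 0.496 RPKM in the 100 bp bin that begins 2000 bp upstream. In the bin that begins at the start it was 0.292 and 0.399. Whether this is linked to the count of cell cycle starts was not tested. With the Sox6 libraries in place of input, 8 of the 23 genes then tested were called, or 34.8%, against 51.4% of all starts. With a prior in proportion to library size in place of 0.5 reads added to each, the count was 15, or 36.6% against 37.7% of all. Without replicate 1 of the input it was 11 of 39 (28.2% against 45.8%) and without replicate 2 it was 18 of 35 (51.4% against 54.5%). A filter of 30 reads left 18 of 27 (66.7% against 76.6%). The share of cell cycle starts called was thus above that of all starts in the fit given first and in 13 of 18 alternatives, and below it in these 5. Most alternatives keep the 0.5 reads added, so their number does not measure how firm the excess is. Calls at Cdk4, Cdk2, Cdc20, Birc5, Pcna and Cdkn1b were kept in every alternative run for them. The other 22 were lost in 1 or more, most often Cdt1 and Top2a in 8, Aurka and Ccna2 in 7, Ccnd2 and Mcm7 in 6 and Mcm4 and Mcm5 in 5.

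Birc5, which encodes the mitotic survival protein survivin, had the highest ratio of the set at the start of the longest model, with 9 and 11 Pol II reads against 1 and 9 in input and a log2 ratio of 4.95 ± 0.66 (adjusted p = 1.14e-12). Without replicate 1 of the input, which held that 1 read, the ratio was 3.69, below the 3.73 of Cdkn1b, and against the Sox6 libraries it was below the 3.68 of Pcna. Over its body it was at 0.435 and 0.666 RPKM against 0.487 and 0.545, so the signal sat at the start. Cdkn1b had 8 and 13 reads against 10 and 9, a log2 ratio of 3.59 ± 0.49 (adjusted p = 4.62e-12). Pcna had 9 and 12 against 6 and 17, a log2 ratio of 3.52 ± 0.48 (adjusted p = 4.11e-12). Per kb, Pcna had 16.4 and 5.48 times as much Pol II at the start as in the body, and Birc5 13.5 and 5.98 times as much. In E2f4 the same ratio was 0.731 and 0.303 and in Rb1 0.380 and 0.563, less at the start than in the body in both replicates.

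Other mitosis genes with a call at the start were Cdc20 (4 and 10 Pol II reads against 6 and 14), Foxm1 (2 and 3 against 2 and 4), Ccnb1 (4 and 5 against 10 and 23), Aurka (2 and 7 against 11 and 20) and Top2a (5 and 3 against 14 and 27). Their log2 ratios were 2.99, 3.30, 1.83, 1.66 and 1.30. Aurka shares its start region with Cstf1 and Foxm1 with 5930416I19Rik, both transcribed away on the other strand, so these reads may belong to either gene. The Top2a call was lost in 8 of 19 alternatives, leaving out either input among them, and over its body the gene was below input in RPKM, a direction turned under the background scaling. Aurkb and Bub1 had 0 Pol II reads at the start in both replicates, against 15 and 17 and against 10 and 10 in input. Ccnb2 had 1 and 3 against 19 and 15, Cdk1 1 and 2 against 11 and 16, and Plk1 0 and 6 against 11 and 14, none of which passed.

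Among the replication genes, the called starts held 1 to 12 Pol II reads in a library. Mcm6 had 3 and 4 reads against 7 and 10 (log2 ratio 2.32 ± 0.69), although its body was below input in RPKM. Under the background scaling the body ratio was 0.43 and was not called. Mcm5 had 1 and 10 against 8 and 18 (1.83 ± 0.62), Mcm4 5 and 2 against 6 and 18 (1.92 ± 0.66) and Mcm7 1 and 11 against 14 and 12 (1.79 ± 0.60). Mcm4 shares its start region with Prkdc and Mcm7 with Ap4m1. Tk1 had 5 and 10 against 23 and 18 (2.03 ± 0.45), Cdc6 3 and 6 against 10 and 17 (1.98 ± 0.57) and Tyms 3 and 7 against 12 and 20 (1.84 ± 0.53). Rrm2, a subunit of ribonucleotide reductase, had 2 and 4 against 8 and 10 (1.99 ± 0.71), with the opposite sign, -0.24, against the Sox6 libraries. Cdt1 had 3 and 3 against 9 and 22 (1.42 ± 0.61). Mcm2 with 1 and 1 against 15 and 23 and Mcm3 with 0 and 1 against 16 and 15 did not pass.

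Of the cyclins and kinases, Cdk2 had 12 and 7 Pol II reads at the start against 16 and 26 in input (2.37 ± 0.42) and Cdk4 9 and 6 against 10 and 27 (2.37 ± 0.47). Ccna2 had 5 and 2 against 8 and 14 (1.90 ± 0.66) and Ccnd2 2 and 4 against 8 and 14 (1.76 ± 0.68). Cdk6 was called on 2 and 1 Pol II reads against 0 and 8 (3.39 ± 0.84), and the call was lost with a prior in proportion to library size (2.60) and without replicate 1 of the input (1.42). Ccnd3 with 2 and 2 against 18 and 11 and Ccne1 with 0 and 2 against 2 and 6 did not pass.

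In the Rb family, Rbl1 had 3 and 6 reads against 6 and 10 (2.69 ± 0.66) and Rb1 1 and 3 against 3 and 6 (2.43 ± 0.90), while Rbl2 with 2 and 4 against 13 and 26 (0.99 ± 0.57) did not pass. The inhibitors Cdkn1a (2.30 ± 0.39), Cdkn2c with 6 and 5 reads against 12 and 13 (2.37 ± 0.54) and Cdkn2a with 1 and 3 against 3 and 8 (2.23 ± 0.88) were called beside Cdkn1b. The call of Cdkn2a was lost in 4 of 15 alternatives, among them leaving out replicate 1 of the input. Cdkn2a has a further annotated start 12427 bp downstream, that of p16, with 2 and 2 Pol II reads against 4 and 11. Among the E2F genes E2f4 had 7 and 5 against 17 and 25 (1.77 ± 0.46), and E2f1 with 2 and 2 against 6 and 10 and E2f2 with 1 and 3 against 9 and 6 did not pass.

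**Figure D3:**
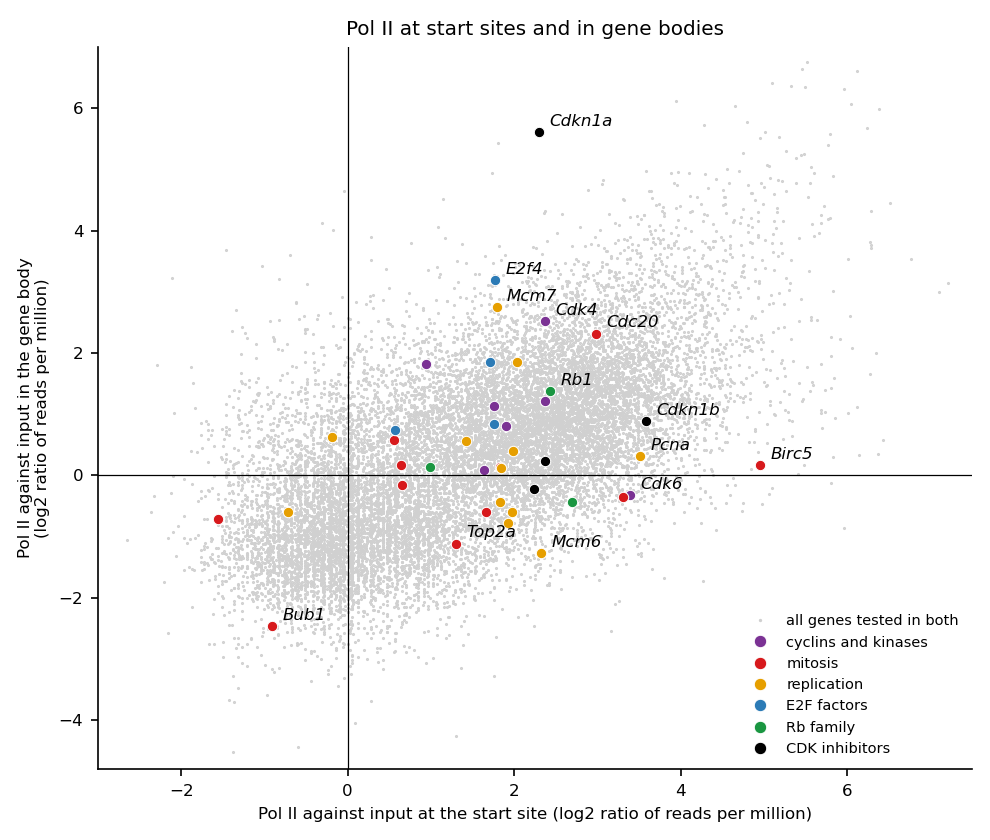
Pol II against input on the log2 scale in the start window (horizontal) against that in the gene body (vertical), both from reads scaled to library size, for all genes tested in both (grey) and the cell cycle genes colored by role. Most cell cycle genes lie right of 0, Cdkn1a at 2.30 and 5.61 is far above the rest, and Birc5, Pcna and Mcm6 lie right of 2 with body ratios of 0.17, 0.32 and -1.27, the last of which turns positive under the background scaling.

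The 24 genes of mitosis and replication were set beside the 7 inhibitor and Rb family genes. At the start 16 of 23 of the former (69.6%) and 6 of 7 of the latter (85.7%) were called higher, against 47.4% of all starts. Their median log2 ratios were 1.83 and 2.37. Over the body 5 were higher and 4 lower among the 24 (20.8% and 16.7%), and 3 higher and 1 lower among the 7 (42.9% and 14.3%). Of all bodies tested, 37.9% were called higher and 25.6% lower. The medians were -0.02 for the 24 and 0.24 for the 7. The 2 sets overlapped, since Mcm7 and Cdc20 lay above every inhibitor and Rb family gene but Cdkn1a. The 5 higher include Tk1, whose reads cannot be told from those of Afmid. Around the starts, the mean Pol II profile of the mitosis and replication genes had its highest bin within 500 bp upstream of the start in both replicates, and the bins there stood at 1.62 to 3.25 RPKM in replicate 1 and 1.81 to 3.02 in replicate 2. In the bins from 500 to 2000 bp into the gene it ran from 0.271 to 1.62 and from 0.151 to 1.06, where the lowest bins hold 1 read over the 24 genes. Aurka, Foxm1, Mcm4 and Mcm7 share their start region with a gene on the other strand, so upstream reads there may belong to either gene. For the 7 inhibitor and Rb family genes the same bins ran from 0.928 to 3.71 and from 1.03 to 4.14 upstream, and from 0.928 to 4.64 and from 1.03 to 5.17 inside. Over all genes they ran from 1.51 to 2.01 and from 1.48 to 1.88 upstream, and from 1.21 to 1.48 and from 1.22 to 1.42 inside.

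**Figure D4:**
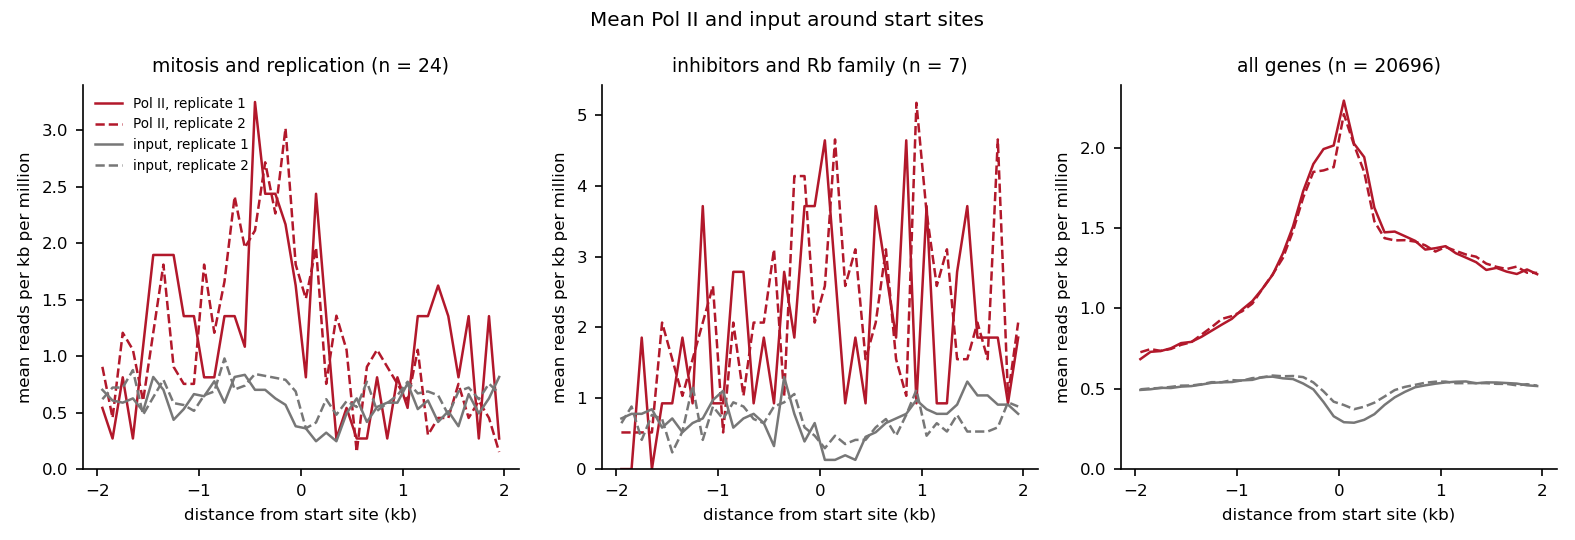
Mean RPKM in bins of 100 bp by distance from the start in kb, for the 24 mitosis and replication genes, the 7 inhibitor and Rb family genes and all 20696 genes with a body, with Pol II in red, input in grey, solid lines for replicate 1 and dashed for replicate 2. Over all genes Pol II in the bin at the start is 2.29 and 2.21 against input of 0.292 and 0.399, and the panels of few genes are uneven because single bins hold few reads.

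Further genes of the same pathways, from lists by function made with earlier results of these data known, were counted in the same fits. Of 39 other mitosis genes 6 had more and 22 less Pol II than input over the body (median log2 ratio -0.88), while 24 were called higher at the start. Of 33 other replication genes 4 were higher and 11 lower over the body (median -0.36), with 19 called at the start. Among 26 other regulators of the cycle 16 were higher and 4 lower (median 0.82), and 12 of 24 were called at the start. All 14 tested of 15 other exit genes and inhibitors were higher over the body, with a median of 2.49, and 13 of 14 at the start. The background for these counts is again 37.9% higher and 25.6% lower over bodies and 47.4% at starts, and under the background scaling lower calls become rare, with 0.328% of all bodies.

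In the deposited Pol II peak lists, 4 of the 44 genes (9.09%) had a peak within the start window in replicate 1 and 6 (13.6%) in replicate 2, against 7.82% and 11.9% of all genes. Birc5 and Pcna had one in both replicates. Cdk4 and Cdk2 had a start peak in replicate 1, and Aurka, Mcm4, Mcm7 and Cdkn1a in replicate 2. Within the gene, 10 (22.7%) and 13 (29.5%) had a peak, against 15.2% and 21.0% of all genes, with the most at Ccnd3, 7 in replicate 1 and 6 in replicate 2.

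Sox6 was next compared with input over the same windows. At the start, 0 of the 37 genes tested were called in limma at an adjusted p under 0.05, where 2.18% of all starts were. At an unadjusted p under 0.05 there were 5, Cdk1, Rrm2, Tyms, Rbl1 and Cdkn1a. The share of all starts at this threshold was not counted, so these 5 cannot be set against a background. The median log2 ratio was 0.72 over the 37 genes and 0.63 over all starts. With voom weights 0 of the 37 were called, against 0.394% of all starts. Rrm2 and Tyms, with log2 ratios of 2.23 and 1.78 in the first fit, were called with repeated positions counted once and with a replicate block. That is 5.41% of the 37, against 2.44% and 2.42% of all starts. Over the body 3 genes were higher (5.39% of all bodies tested) and 1 lower (1.76% of all). The higher genes were E2f4, with 1.16 and 1.80 RPKM in the Sox6 libraries against 0.619 and 0.721 in input (log2 ratio 1.14 ± 0.29, adjusted p = 0.0459), E2f2, with 1.11 and 1.09 against 0.534 and 0.650 (0.91 ± 0.17, adjusted p = 0.0217), and Ccnd3, with 0.847 and 0.882 against 0.572 and 0.619 (0.54 ± 0.10, adjusted p = 0.0223). These 3 genes also had more Pol II than input over the body. Bub1 was lower, at 0.310 and 0.180 against 0.561 and 0.473 (-1.07 ± 0.27, adjusted p = 0.044), and it was the lowest in Pol II too. None of these 4 calls held in every alternative: a prior in proportion to library size left 0 higher and 0 lower, and leaving out replicate 1 of the input also left 0 of each. Whether reads shared by both immunoprecipitations account for these genes was not tested.

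Over the bodies of the inhibitors and the Rb family, no difference between Sox6 and input passed the threshold in the fit given first. With all 6 libraries and with the background scaling Cdkn1a was called higher, where 6.07% and 32.9% of all bodies were. Cdkn1a had 0.916 and 1.10 RPKM of Sox6 against 0.616 and 0.661 (log2 ratio 0.69 ± 0.26, adjusted p = 0.127), Cdkn1b 0.290 and 0.590 against 0.957 and 0.760 (-0.88 ± 0.45, adjusted p = 0.23) and Rb1 0.686 and 0.587 against 0.726 and 0.679 (-0.14 ± 0.11, adjusted p = 0.42). Cdkn2a, Cdkn2c, Rbl1 and Rbl2 had log2 ratios from -0.28 to -0.04 and did not pass.

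The deposited list of 1066 Sox6 peaks common to both replicates had a peak in or within 20 kb of 2 of the 44 genes, Ccna2 and Foxm1, against 4.32% of all genes. Neither peak lay in its gene or within 5 kb of it. The peak near Ccna2 lay 13367 bp beyond the end of the gene and 1107 bp outside Exosc9. In a window of 450 bp around its centre, 24 and 8 reads came from Sox6, 12 and 19 from Pol II and 8 and 13 from input, which is 8.04 and 5.45 RPM (reads for each 1000000 of the library) of Sox6 against 0.364 and 0.536. The peak near Foxm1, a transcription factor of mitotic genes, lay 10930 bp beyond that gene and 1679 bp from 4933413G19Rik, with 8 and 7 Sox6 reads against 11 and 10 in input, or 2.68 and 4.77 against 0.501 and 0.412 RPM. The median over all common peaks was 15 and 10 Sox6 reads, so the Ccna2 peak was above it in replicate 1 and below it in replicate 2, and the Foxm1 peak was below it in both.

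The sequences of both peaks follow, as the plus strand, since they are the only places near the 44 genes where both replicates had a Sox6 peak. Capitals mark Sox matches (ACAAAG or ACAATG) and E-boxes (CAGCTG or CAGGTG, the motif of myogenic factors such as MyoD), on either strand.
Ccna2 peak, chr3:36450342-36450501: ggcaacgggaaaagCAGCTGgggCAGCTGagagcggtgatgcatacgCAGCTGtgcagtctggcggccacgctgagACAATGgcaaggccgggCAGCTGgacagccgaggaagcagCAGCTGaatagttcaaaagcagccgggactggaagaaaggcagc
Foxm1 peak, chr6:128336782-128336901: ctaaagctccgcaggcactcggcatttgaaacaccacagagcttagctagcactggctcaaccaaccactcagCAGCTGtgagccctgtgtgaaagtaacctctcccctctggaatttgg

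The Ccna2 peak holds 5 E-boxes and 1 Sox match in 160 bases, and the Foxm1 peak 1 E-box and no Sox match in 120 bases. Over the common peaks, 52% held a Sox match and 55.5% an E-box. In the promoters of the 44 genes, a Sox match was found in 8 (18.2%) and an E-box in 9 (20.5%), against 25.7% and 32.1% of all promoters.

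**Figure D5:**
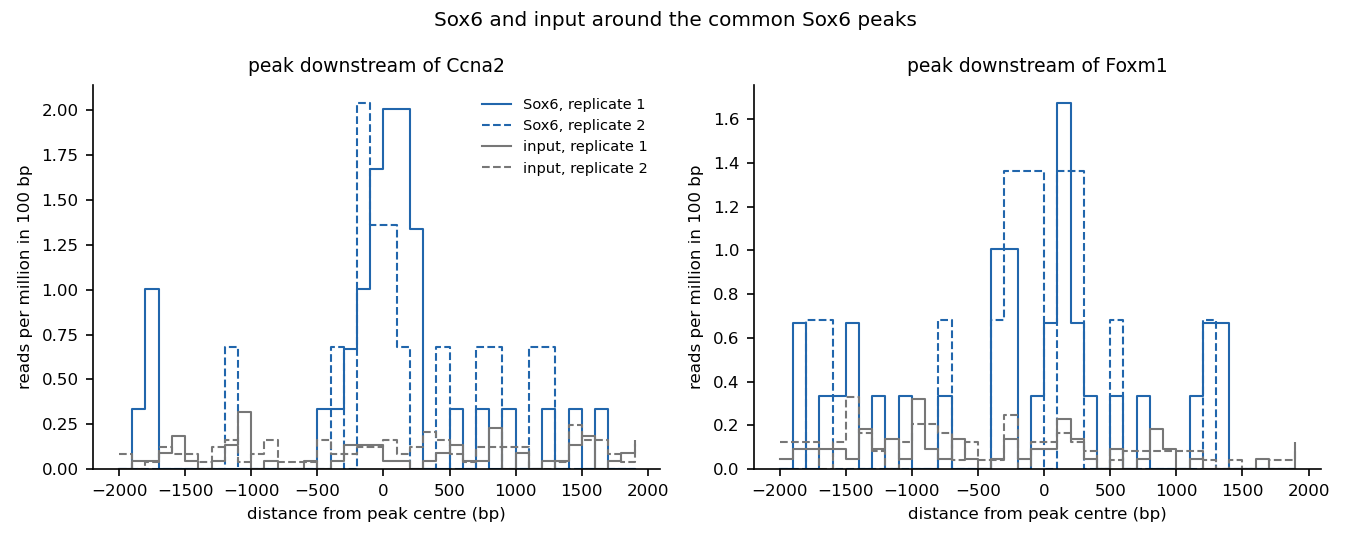
Sox6 (blue) and input (grey) in RPM in bins of 100 bp by distance in bp from the centre of the common Sox6 peaks near Ccna2 and Foxm1, with solid lines for replicate 1 and dashed for replicate 2. The 450 bp at the centre of the Ccna2 peak hold 24 and 8 Sox6 reads and those of the Foxm1 peak 8 and 7.

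The list of replicate 1 had a peak in or within 20 kb of 6 of the 44 genes (13.6%, against 9.67% of all genes), and that of replicate 2 of 4 (9.09%, against 6.70%). Peaks of a single list lay near 5 more genes than the common list. In replicate 1, Ccnd3 had a peak in an intron (10 and 6 Sox6 reads in 450 bp, in replicates 1 and 2), Ccne1 had one 5268 bp upstream (8 and 5) and Ccnb2 one 2000 bp upstream (10 and 2). Cdkn1a had one 1219 bp beyond its end with 9 and 2 Sox6 reads, in the region where Pol II continued past the gene, with 44 and 71 Pol II reads in the same window and 5 and 7 in input. In replicate 2, Ccnd3 had a different intronic peak (5 and 11) and Rb1 an intronic peak (4 and 9). In RPM the other replicate was as high or higher at the first Ccnd3 peak (3.35 in replicate 1 and 4.09 in replicate 2) and at Ccne1 (2.68 and 3.40), so a peak in a single list did not mean reads in a single library.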

How the data were processed

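Per the labels and the study's methods, Sox6, Pol II and input libraries were sequenced as single reads after 18 cycles of PCR and selection of 300 to 600 bp. The authors aligned reads with Bowtie 0.12.5, as the submitters' processing notes give it, to NCBI Build 37, kept uniquely placed reads and called peaks with SISSRs against input. They deposited read positions and peak lists with a score column, which holds no counts and was not used as a measurement. How repeated positions were treated was not given in the sources used here, and they made up 2.96 to 7.88% of reads. The read length was 36 bases in input replicate 1 and 39 in the other libraries.

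Genes were the 22671 of GENCODE vM1 whose symbol (20480) or synonym (2191) matched a curated RefSeq gene, each with its longest model. The genome used is of the same build, checked with primers of a control region. Reads were counted by their 5′ end within 500 bp of the start and from 500 bp after the start to the gene's end. limma 3.58.1 (R 4.3.3) with a trend was fitted to log2 RPM (reads for each 1000000 of the library) with 0.5 reads added, on genes with at least 10 reads over the 4 libraries, separately for Pol II and for Sox6 against input, with Benjamini-Hochberg adjustment at 0.05 over all genes. This was set for position files without a count column. The reads counted in windows are whole numbers, so a test made for counts could also have been used. The scripts were tested on simulated data. With few reads, 0.5 added to libraries of unequal depth raises the ratio of the shallower one, as the alternative with an equal prior shows. Python 3.11.15 with numpy 2.4.6, pandas 2.3.3, pysam 0.24.0 and matplotlib 3.10.9 was used. The alternatives were other priors, scalings, filters, windows, starts and weights, a replicate block, and each library left out. Bodies outside other genes and every annotated start were added after seeing the data.

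The 44 genes, the other lists and the motifs were chosen with earlier results of these data known, except the p53 element, which was added on reading the Cdkn1a promoter. Values in every library are given for genes called in a comparison, for the 3 genes of each role with the most Pol II at the start, for all inhibitors and Rb family genes and for genes with a Sox6 peak of any list in or within 20 kb. Others are given by range or count. Replicates were independent experiments, and p-values with 2 libraries a group rest on a spread shared across genes.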

Additional observations from a re-analysis of the deposited data

How the results depend on the processing

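Of Pol II over gene bodies, the 18 genes called higher became 40 and the 6 called lower 1 when libraries were scaled to background bins, and the counts ran from 14 to 22 and from 4 to 13 when 1 library was left out. The 13 lower came without replicate 1 of Pol II. Under that scaling the sign turned at Cdk6 (1.37), Cdk1 (1.53), Aurka (1.09), Foxm1 (1.34), Mki67 (0.60), Top2a (0.58), Cdc6 (1.09), Mcm3 (1.10), Mcm4 (0.91), Mcm5 (1.26), Mcm6 (0.43), Rbl1 (1.27), Cdkn2a (1.47) and, called in neither fit, Aurkb (0.98), and without replicate 2 of Pol II at Ccne1 (-0.68, and 0.86 without replicate 1). At the starts, the 28 calls became 8 with the Sox6 libraries as background, where Rrm2 turned (-0.24), 18 with all 6 libraries in the fit, 18 with a filter of 30 reads and 15 with a prior equal in RPM, and ran from 11 to 26 without 1 library. They became 37 (90.2%) with the background scaling and with 2 reads added, against 78.4% and 83.5% of all starts. The 18 with all 6 libraries are 43.9%, against 40.2% of all starts.

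Of the Sox6 comparisons, 0 calls at the starts became 19 with 2 reads added (51.4%, against 55.3% of all starts). With the background scaling there were 3 (8.11% against 7.91%). There was 1 with ends moved 75 bp (2.63% against 2.34%), with a filter of 30 reads (5.26% against 4.34%) or with every annotated start. There were 2 with no filter (4.55% against 6.4%) or with repeated positions counted once (5.41% against 2.44%). The count also changed when 1 library was left out. Lower calls appeared with the equal prior (E2f3 and Mcm5), without replicate 1 of Sox6 (E2f4) and without replicate 2 (Ccnb2, Cdk4, Mcm2 and Rbl2). Without replicate 1 of Sox6, the deeper library, Ccnb2 (2.02) and Mcm2 (1.53) turned at the start and Cdkn2a (0.39) in the body, where these were -2.17, -2.30 and -0.48 without replicate 2. Over bodies, the 3 higher became 0 with a prior equal in RPM, as over all bodies. With the background scaling they became 12 (27.3%, against 32.9% of all bodies). The 1 lower became 0 with all 6 libraries, with the body from 1000 bp, with the equal prior, with the background scaling and with voom weights. Both body counts also changed when 1 library was left out. The 2 genes with a common peak became 0 within 5 kb, and 6 and 4 with the peaks of replicate 1 or replicate 2 alone. The cause of these changes was not tested.

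Correlations of the deviations of same-numbered libraries lay between -0.053 and 0.047. With 2 replicates of each kind, they cannot show whether same-numbered libraries came from the same experiment. The study's methods set each ChIP experiment against its own input. With the replicate number as a block, Pol II was called higher at 27 starts (65.9%, against 45.9% of all) and 19 bodies (43.2% against 38.1%). It was called lower at 6 bodies (13.6% against 26.3%). Sox6 was called higher at 2 starts, Rrm2 and Tyms (5.41% against 2.42%). Over bodies Sox6 was called higher at 4 (9.09% against 13.5%) and lower at 1 (2.27% against 5.65%).

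Reads were few in the start windows, where 1 read weighs much, and for Sox6 at single genes. The effect of depth was not tested.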
